A study of Mus musculus with 4 samples.

Results

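The genes described here are 9 members of the Toll-like receptor pathway of the mouse, chosen by symbol among the 32285 genes of the deposited count matrices: the receptors Tlr2, Tlr3, Tlr4, Tlr7, Tlr8, Tlr9 and Tlr13, the adaptor Myd88 and the trafficking chaperone Unc93b1. Their levels were read in cells of the ascites, the fluid that collects in the peritoneal cavity with a spreading tumor, of female FVB mice 6 weeks after tumor cell injection. Per the study's methods, mice carried a mouse ovarian tumor line (Br-Luc, lacking p53 and Brca1 and carrying Myc and activated Akt) and received intraperitoneal jetPEI complexes of either a control siRNA or an siRNA against Fxr1. The methods name both siRNAs as modified with locked nucleic acid (LNA), whereas the labels write siCont for the control and siFXR1-LNA for the other. Both groups therefore received an LNA siRNA in the same carrier, and no untreated animals were analysed here. Each group had 2 single-cell RNA-seq libraries, and each library held pooled fluid of several mice, so the p-values below measure the spread between pools and not between animals.

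Toll-like receptors are membrane proteins of innate immune cells that bind parts of microbes. TLR2 and TLR4 sit at the cell surface and bind lipoproteins and lipopolysaccharide, whereas TLR3, TLR7, TLR8, TLR9 and TLR13 sit in endosomes and bind nucleic acids. TLR3 binds double-stranded RNA, TLR7 and TLR8 bind breakdown products of single-stranded RNA, TLR9 binds unmethylated CpG DNA, and TLR13 binds a bacterial ribosomal RNA. UNC93B1 carries the endosomal receptors out of the endoplasmic reticulum, and MYD88 passes on the signal of every member receptor other than TLR3, which uses TICAM1. Since an siRNA in a cationic carrier is itself a nucleic acid that enters endosomes, the question addressed was which cells of the ascites hold transcripts of these receptors, and whether their levels differed between the groups.

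The deposited matrices held 17309 to 54665 cell barcodes and 78179267 to 113606837 UMIs (unique molecular identifiers, each counting 1 captured transcript) per library, and 132644 cells passed the filters. Of all UMIs, 29.5% and 41.1% were of hemoglobin genes in the siCont libraries and 10.0% and 9.11% in those labelled siFXR1-LNA. Over whole libraries, the targeted gene was not lower where the labels say it was targeted. Fxr1 was at 57.3 and 36.6 UMIs per 1000000 UMIs of the library in the siCont libraries. It was at 104 and 74.4 in the libraries labelled siFXR1-LNA, and without hemoglobin at 81.3 and 62.1 against 116 and 81.8. Those libraries are therefore called "labelled siFXR1-LNA" throughout. These levels cover all cells of a library, and the cell types captured differed between the groups. The study reports lower Fxr1 in epithelial cells of its siFXR1-LNA group, and levels of Fxr1 per class are not given here. Of the cell barcodes, 8238 occurred in more than 1 library.

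Cells were grouped into 12 classes by clustering and by fixed marker lists. Macrophages (14106 cells), granulocytes (11609), B cells (7248), T cells (6668), type 2 dendritic cells (DCs, 1624), migratory DCs (714), type 1 DCs (784) and plasmacytoid DCs (77) were the main immune classes with at least 10 cells in every library, and all markers of its own list were detected in each of these classes in every library. Of the type 1 DCs, 85 cells formed a subcluster with raised levels of 5 of the 7 macrophage markers beside all 6 of its own, led within the class by Retnla, Fn1 and Apoe, and with a median of 10517 UMIs per cell against 6244 in the other 699. Results for type 1 DCs that rest on these 85 cells are given with and without them. Erythroid cells (38022) came nearly all from the siCont libraries. The largest group of all, 46776 cells, had 41186 from siFXR1-LNA replicate 1 and 5459 from siFXR1-LNA replicate 2. It had raised levels of 3 of the 5 epithelial markers but stayed unnamed, since over 85% of it came from 1 library. For each class and library the UMIs of all cells were summed, and a level below is CPM, a gene's UMIs per 1000000 UMIs of that class in that library, also where no unit is repeated. The reads come from transcript 3' ends, so levels are compared within a gene and not between genes.

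All 9 genes were detected in each library. Over the 4 libraries the kept cells held 58699 UMIs of Unc93b1, 13705 of Tlr13, 9696 of Tlr4, 8217 of Myd88, 6993 of Tlr2, 6987 of Tlr7, 3756 of Tlr8, 2283 of Tlr3 and 1333 of Tlr9. Depth therefore limits Tlr9 and Tlr3 most, and in the 77 plasmacytoid DCs it limits every member but Unc93b1. Intervals and floors given below cover counting error only.

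On the mouse GRCm38 genome with the GENCODE vM21 annotation, the members lie apart from each other except on the X chromosome. There Tlr7 (chrX:167304929-167330558) and Tlr8 (chrX:167242696-167264329) are neighbours on the minus strand, and Tlr13 (chrX:106143204-106160493) lies on the plus strand far from both. Tlr3 (chr8:45395665-45411080, minus strand) is overlapped on the other strand by the gene model Gm45542. Myd88 (chr9:119335934-119341411, minus strand) overlaps Slc22a14 on its own strand and Acaa1a on the other, so reads in the stretch shared with Slc22a14 cannot be told apart by strand. The remaining members, Tlr9 (chr9:106222598-106226883), Tlr2 (chr3:83836272-83841767), Tlr4 (chr4:66827584-66930284) and Unc93b1 (chr19:3935186-3949340), overlap no other annotated gene.

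Promoter windows from RefSeq on GRCm38.p6, 250 bases before to 50 bases after the start site, matched 6 of the 9 members: Tlr2, Tlr3, Tlr8, Tlr9, Tlr13 and Myd88. They were searched on both strands for 2 short motifs that belong to the biology compared below. One is the core of the interferon-stimulated response element (ISRE), the letters GAAA and GAAA with any 2 bases between them, which interferon regulatory factors bind. The other is the core GAGGAA of sites for PU.1, a transcription factor of myeloid and B cells. The 4 windows printed here are those of the adaptor, of the double-stranded RNA receptor, and of the endosomal receptors Tlr9 and Tlr13, with motif letters in capitals (the ISRE core in Myd88, the PU.1 core in Tlr9 and Tlr13). They lie at chr9:119339969-119340268 on the minus strand (Myd88), chr8:45410331-45410630 on the minus strand (Tlr3), chr9:106222348-106222647 on the plus strand (Tlr9) and chrX:106143025-106143324 on the plus strand (Tlr13).
Myd88: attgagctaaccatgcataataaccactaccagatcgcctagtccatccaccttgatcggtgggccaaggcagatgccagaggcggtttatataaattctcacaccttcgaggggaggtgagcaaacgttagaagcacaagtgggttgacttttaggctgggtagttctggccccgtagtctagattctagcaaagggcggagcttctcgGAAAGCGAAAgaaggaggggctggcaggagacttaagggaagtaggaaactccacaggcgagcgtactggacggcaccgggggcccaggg
Tlr3: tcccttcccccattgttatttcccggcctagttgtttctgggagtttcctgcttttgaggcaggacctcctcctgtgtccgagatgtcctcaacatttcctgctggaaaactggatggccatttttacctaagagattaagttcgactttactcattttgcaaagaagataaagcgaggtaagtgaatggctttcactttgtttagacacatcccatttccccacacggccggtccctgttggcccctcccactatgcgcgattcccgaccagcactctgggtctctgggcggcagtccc
Tlr9: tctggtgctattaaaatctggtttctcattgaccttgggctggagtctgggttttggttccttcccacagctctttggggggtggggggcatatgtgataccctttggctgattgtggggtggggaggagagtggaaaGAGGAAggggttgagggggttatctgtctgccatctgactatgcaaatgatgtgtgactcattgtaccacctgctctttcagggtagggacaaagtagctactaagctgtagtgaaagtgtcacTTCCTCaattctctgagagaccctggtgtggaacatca
Tlr13: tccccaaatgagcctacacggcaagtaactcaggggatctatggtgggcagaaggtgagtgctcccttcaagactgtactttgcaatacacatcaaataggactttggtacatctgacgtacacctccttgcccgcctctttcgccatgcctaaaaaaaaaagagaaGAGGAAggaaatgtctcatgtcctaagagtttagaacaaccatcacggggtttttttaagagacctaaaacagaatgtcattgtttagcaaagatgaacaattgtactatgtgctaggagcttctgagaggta

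Myd88 was the single member of the 6 whose window held the ISRE core, at position -40 from the start site, and 3.44% of all 32851 windows held it. The PU.1 core was present in the windows of Tlr9 (at -112 and 13), Tlr13 (at -83) and Tlr8 (at -77) and in 28.3% of all windows. Neither core occurred in the windows of Tlr3 and Tlr2. These matches describe letters in the windows, and no binding was measured.

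The double-stranded RNA receptor Tlr3 was highest in type 1 DCs, the dendritic cells that take up dying cells and present their antigens to CD8 T cells. In type 1 DCs it was at 144 and 162 CPM in the siCont libraries and at 50.3 and 118 in the libraries labelled siFXR1-LNA, from 390, 302, 23 and 77 UMIs. Without the 85 cells that also held macrophage markers it was at 153 and 164 against 58.2 and 122. With or without these cells, every one of the 4 values was above every value of every other class. In the siCont libraries macrophages were at 11.1 and 9.599 and type 2 DCs at 6.69 and 7.02. B cells (2.59 to 4.98), granulocytes (1.27 to 3.98) and T cells (1.01 to 3.16) overlapped each other. These low values were near those of erythroid cells in the siCont libraries, 3.26 and 0.75, a class not known to use the receptor. In the class of epithelial and mesothelial cells, Tlr3 stood at 8.24 and 6.88 in the siCont libraries and at 3.81 and 5.59 in the others.

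Tlr7, a receptor for guanosine- and uridine-rich single-stranded RNA, was highest in plasmacytoid DCs, which are known for making type I interferon, and in macrophages. Plasmacytoid DCs held 5, 10, 3 and 8 Tlr7 UMIs, levels of 40.7, 135, 61.9 and 73.9 in the order siCont replicate 1, siCont replicate 2, siFXR1-LNA replicate 1, siFXR1-LNA replicate 2. Their 95% exact Poisson intervals ran from 13.2 to 95.01 for the lowest value and from 64.9 to 249 for the highest. The macrophage levels of 60.2, 52.4, 37.5 and 47.8 lay inside the interval of the lowest value and below that of the highest. B cells followed at 29.3, 38.7, 21.6 and 21.4. Granulocytes were at 6.35 and 6.26 in the siCont libraries and at 14.3 and 21.7 in the libraries labelled siFXR1-LNA. Type 1 DCs, the class richest in Tlr3, held 25, 5, 1 and 1 Tlr7 UMIs, levels of 9.23, 2.68, 2.19 and 1.53 CPM. Of these, 22, 3, 1 and 1 UMIs came from the 85 cells with macrophage markers. The other 699 type 1 DCs held 3, 2, 0 and 0 Tlr7 UMIs among 4745097, which is 1.05 CPM.

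Tlr8, the neighbour of Tlr7 on the X chromosome and a receptor for RNA breakdown products, was mostly a macrophage transcript. Macrophages held it at 42.5, 29.4, 18.9 and 30.4 CPM, above every value of every other tested class. Granulocytes (3.76 to 10.2) and type 2 DCs (2.14 to 11.1) overlapped. Type 1 DCs held 10, 1, 3 and 0 Tlr8 UMIs, and all 14 came from the 85 cells with macrophage markers (14.9 CPM there). The other 699 type 1 DCs had 0 Tlr8 UMIs among 4745097, which allows a level of up to 0.632 CPM. No Tlr8 UMI was found among the 353363 UMIs of plasmacytoid DCs, which allows up to 8.49. Plasmacytoid DCs thus differed from macrophages in holding Tlr7 without detectable Tlr8, although their floor does not exclude the lower granulocyte levels.

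Tlr9, the receptor for CpG DNA, was spread over antigen-presenting cells. Plasmacytoid DCs held 3, 3, 0 and 7 UMIs (24.4, 40.6, 0 and 64.7 CPM, the highest value with an interval from 26.0 to 133). Type 2 DCs at 15.5, 18.0, 10.08 and 15.7, type 1 DCs at 14.0, 19.3, 8.75 and 6.12, migratory DCs at 13.2, 15.1, 8.81 and 7.33 and B cells at 13.5, 15.3, 4.98 and 14.9 overlapped one another. Macrophages were lower than each of these last 4 classes in every library, at 7.12, 12.1, 1.41 and 3.35. Tlr9 was scarce in T cells (0 to 1.05), in the epithelial-mesothelial class (0 to 0.412) and in erythroid cells of the siCont libraries (0.243 and 0.226).

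Tlr13, a mouse receptor for bacterial 23S ribosomal RNA, was highest in granulocytes, at 82.6, 185, 102 and 137 CPM, and in macrophages, at 77.5, 97.6, 74.1 and 86.1, and these ranges overlapped. Below both lay migratory DCs (40.0 to 55.7), type 1 DCs (35.4 to 56.9) and type 2 DCs (26.8 to 63.0), which overlapped each other. B cells and T cells held 1.75 to 11.1. Among the endosomal receptors it was the only one for which granulocytes reached macrophage levels in every library.

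Of the surface receptors, Tlr2 was found in granulocytes at 31.8, 51.2, 50.7 and 84.9 and in macrophages at 46.1, 35.6, 38.2 and 44.3 CPM, ranges that overlapped. Type 2 DCs were lower than both within each library, at 16.4 to 34.7, although their highest value passed the lowest of granulocytes. Tlr4 followed a similar order, with granulocytes at 73.7, 131, 56.1 and 64.8 and macrophages at 71.8, 80.1, 35.7 and 45.9. Outside the myeloid cells, Tlr4 stood at 10.3 and 16.1 in the epithelial-mesothelial class of the siCont libraries and at 28.2 and 17.5 in the others. B cells (9.59 and 8.72 against 18.8 and 12.3) overlapped that range, and T cells (3.02 to 11.6) reached into it. Type 2 DCs held Tlr4 at 13.9 to 15.8 and type 1 DCs at 4.59 to 15.1, or 4.37 to 10.6 without the 85 cells.

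Unc93b1 and Myd88, which serve several receptors, were broader. Unc93b1 was at 475 to 758 CPM in plasmacytoid DCs, 437 to 604 in type 1 DCs, 257 to 465 in macrophages, 263 to 420 in type 2 DCs and 189 to 361 in B cells. Plasmacytoid and type 1 DCs overlapped, as did macrophages, type 2 DCs and B cells, and macrophages of siCont replicate 1 just passed the lowest type 1 DC library. Granulocytes (56.2 to 141) and T cells (18.7 to 31.6) were below all of them. Myd88 was highest in type 2 DCs (64.3 to 121) and type 1 DCs (72.2 to 125), and granulocytes (24.7 to 79.6) and macrophages (22.1 to 66.7) reached up into these ranges. T cells held 6.33 to 22.4 and B cells 8.85 to 16.2.

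**Figure D1:**
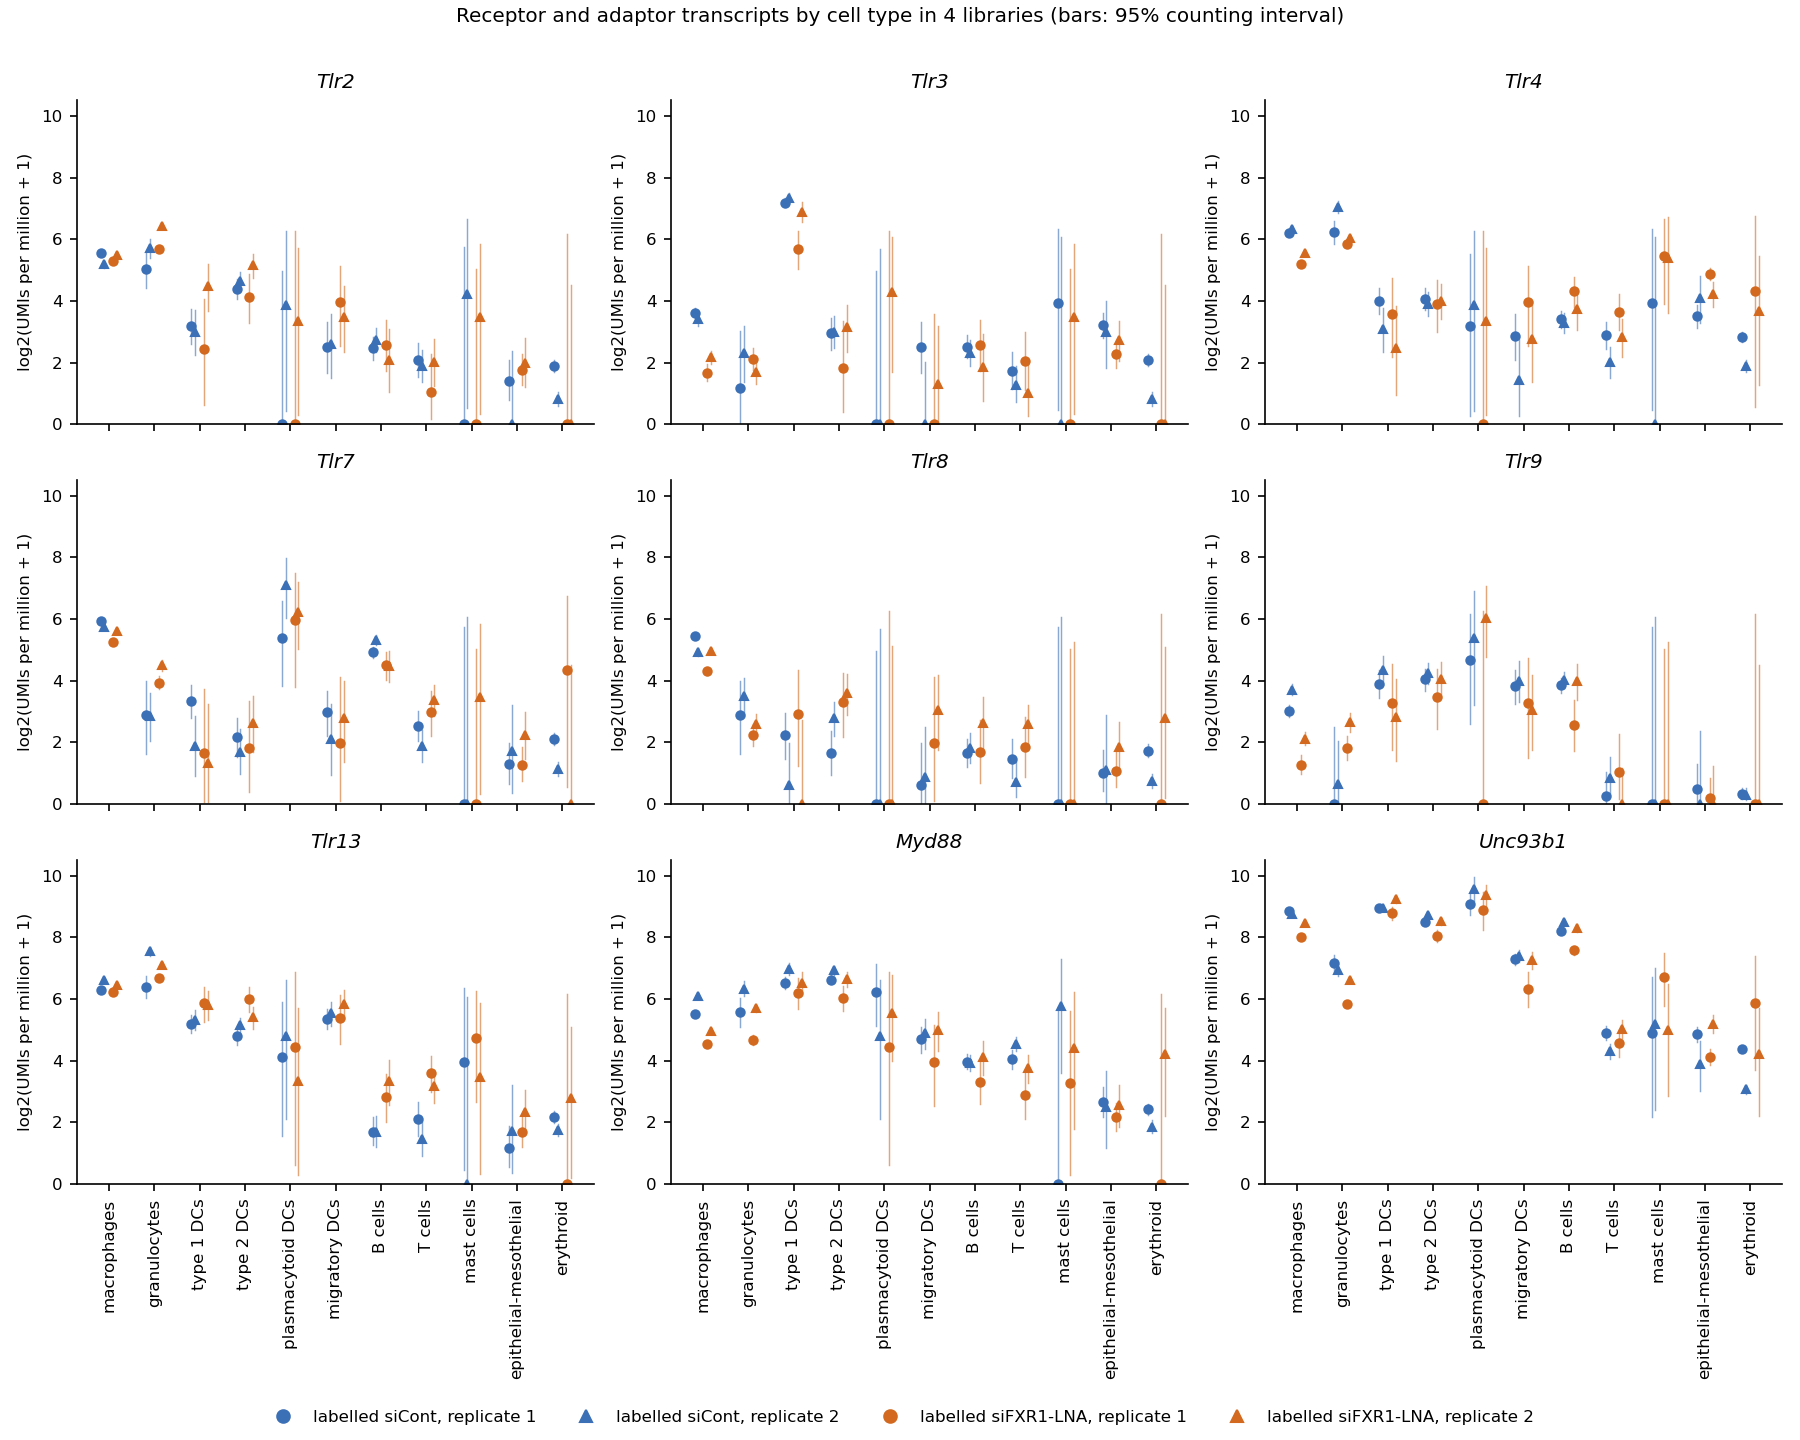
Levels of the 9 genes in each cell class, as CPM of the class on a log axis, with 1 point per library colored by label. The reader sees Tlr3 between 50.3 and 162 in type 1 DCs and at most 11.1 in macrophages, Tlr8 highest in macrophages (18.9 to 42.5), and Tlr13 overlapping between granulocytes and macrophages.

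Where the receptor transcripts of the ascites were found followed the number of cells as well as the level per cell. In the siCont libraries macrophages held 80.7% and 79.9% of all Tlr8 UMIs, 71.6% and 64.1% of Tlr2, 70.6% and 66.8% of Tlr13, 68.1% and 64.8% of Tlr7 and 67.2% and 69.2% of Tlr4. Type 1 DCs, although few, held 40.8% and 50.7% of Tlr3. In the libraries labelled siFXR1-LNA, granulocytes held 24.2% and 29.3% of Tlr4 and 31.0% and 37.0% of Tlr2, and replicate 1 had 61.8% of its Tlr3 UMIs and 31.5% of its Tlr4 UMIs in the unnamed cluster. Such shares depend on how many cells of each class a library captured and were not tested.

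**Figure D2:**
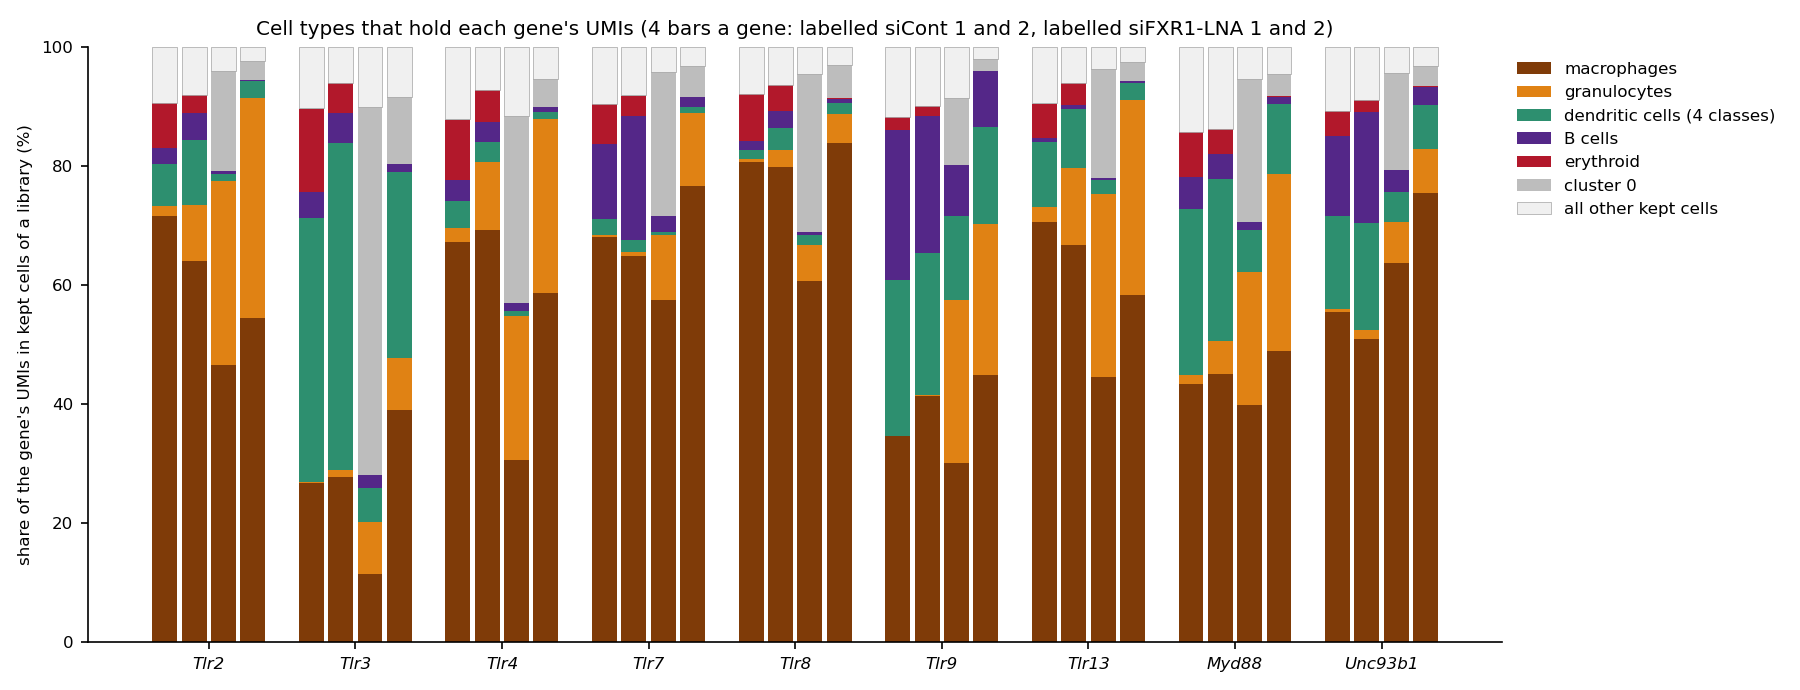
Share of each gene's UMIs found in each cell class, in percent of the library's UMIs of that gene, with 1 stacked bar per library. Macrophages hold 80.7% and 79.9% of Tlr8 in the siCont libraries, and type 1 DCs hold 40.8% and 50.7% of Tlr3.

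The comparison of the 2 groups asked whether the receptors changed within a class. In macrophages, 2 of the 9 members passed an adjusted p of 0.05 in edgeR's quasi-likelihood test and both fell, while 18.7% of the 14289 genes tested were called in that class and 9.55% fell. All 9 members passed the filter on low counts. Their median log2 fold change was -0.37, against 0.01 for all genes tested. The members called are a share close to that of all genes. In both libraries labelled siFXR1-LNA, 6 members (Tlr3, Tlr4, Tlr7, Tlr9, Myd88 and Unc93b1) were lower than in either siCont library, and Tlr2, Tlr8 and Tlr13 overlapped. Of all genes tested in macrophages 46.7% were lower and 22.9% higher in that sense.

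Tlr3 in macrophages stood at 11.1 and 9.599 CPM in the siCont libraries and at 2.20 and 3.497 in the libraries labelled siFXR1-LNA, from 257, 166, 50 and 115 UMIs. The groups did not overlap, and the log2 fold change was -1.66 (SE 0.28, edgeR adjusted p = 0.021). Without siFXR1-LNA replicate 1 it was -1.36 with an adjusted p of 0.095 in edgeR.

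Tlr4, the lipopolysaccharide receptor, was at 71.8 and 80.1 in macrophages of the siCont libraries and at 35.7 and 45.9 in the others. Here too the groups were separate, with a log2 fold change of -0.71 (SE 0.16, edgeR adjusted p = 0.042). The edgeR adjusted p was 0.109 without siCont replicate 2, 0.18 without siFXR1-LNA replicate 1 and 0.062 without siFXR1-LNA replicate 2.

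Tlr9 and Myd88 missed the threshold in macrophages. Tlr9 was at 7.12 and 12.1 against 1.41 and 3.35, a log2 fold change of -1.82 (SE 0.50, edgeR adjusted p = 0.064), and Myd88 at 44.8 and 66.7 against 22.1 and 29.8, a log2 fold change of -0.92 (SE 0.26, edgeR adjusted p = 0.068). Both passed with DESeq2, without TMM, without the filter on low counts, with a replicate block and without siCont replicate 1. Unc93b1 (465 and 435 against 257 and 352) had a log2 fold change of -0.37 with an edgeR adjusted p of 0.222. For Tlr7, Tlr8, Tlr2 and Tlr13 the log2 fold changes were -0.21, -0.35, 0.21 and 0.06, none past the threshold.

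**Figure D3:**
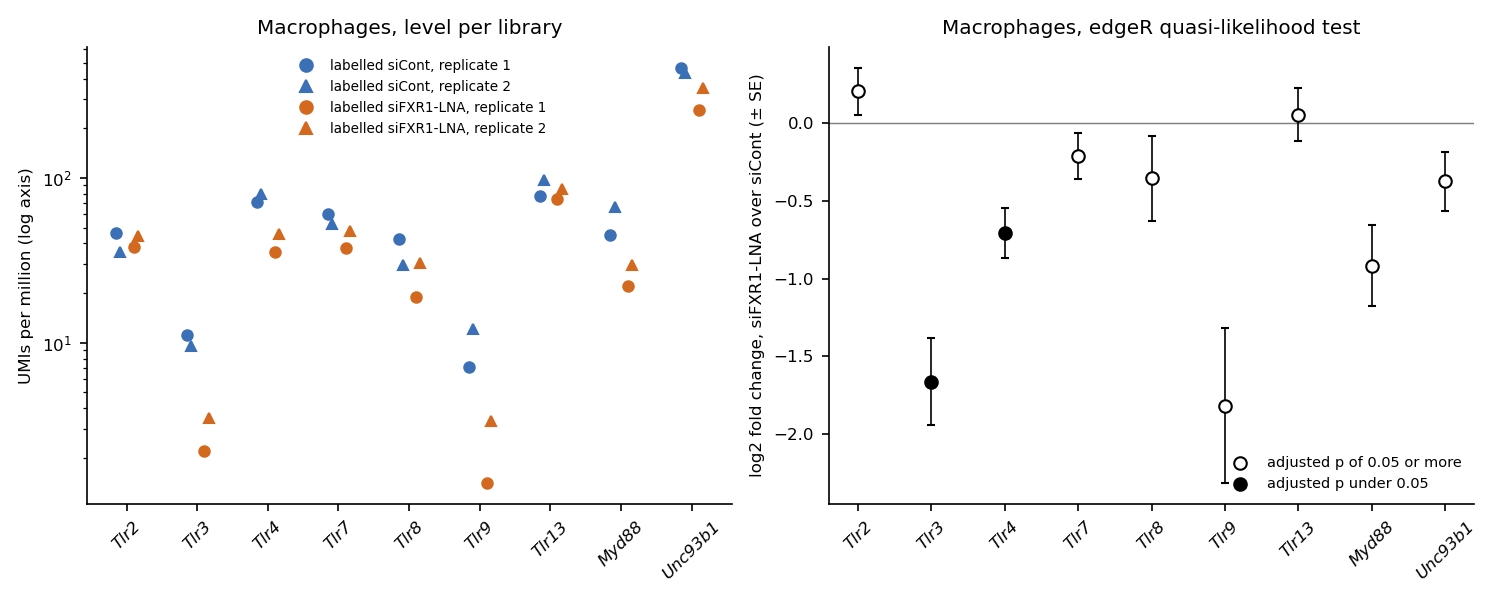
Levels of the 9 genes in macrophages, as CPM of the macrophage UMIs, with 1 point per library. Tlr3 (11.1 and 9.599 against 2.20 and 3.497) and Tlr4 (71.8 and 80.1 against 35.7 and 45.9) are the 2 genes called, and Tlr2, Tlr8 and Tlr13 overlap between the groups.

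Marker genes of other cell types moved with the groups in macrophages. The 6 markers of type 1 DCs summed to 127 and 145 CPM in macrophages of the siCont libraries and to 59.5 and 62.9 in the others, where Xcr1 was at 0 in replicate 1. The 7 markers of plasmacytoid DCs summed to 759 and 812 against 188 and 240, with Klk1 at 0 in all libraries but siFXR1-LNA replicate 2, and the 7 granulocyte markers, all detected, to 124 and 431 against 1293 and 1525. The macrophage list itself summed to 25522 and 18489 against 7699 and 14227. Whether these transcripts came from other cells or from the macrophages themselves was not tested. Their part in the values of Tlr3, Tlr9 and Tlr4 was not tested either.

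Different macrophages filled this class in the 2 groups. The subcluster marked by Lyve1 and Cbr2, genes of resident peritoneal and tissue macrophages, had 2672 and 1002 cells in the siCont libraries and 45 and 1020 in those labelled siFXR1-LNA. A subcluster led by Ly6c2, Irf7, Cd300e and Ace, genes of monocytes and of the interferon response, had 1026 and 709 cells in the siCont libraries against 0 and 1 in the others. Conversely, the subcluster led by Saa3, Nos2 and Arg1, genes of activated macrophages, had 0 and 1 cells against 2026 and 1841. The fall of a gene over the class and the change of its subclusters cannot be told apart.

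The members differed between these subclusters, as a description. In the Ly6c2 and Irf7 subcluster of the siCont libraries, Tlr9 was at 21.4 and 28.4 CPM, Myd88 at 89.4 and 109 and Tlr3 at 14.3 and 14.6. The Saa3 and Nos2 subcluster of the libraries labelled siFXR1-LNA had Tlr9 at 1.20 and 1.63, Myd88 at 21.7 and 27.9, Tlr3 at 1.54 and 0.99 and Tlr4 at 23.5 and 22.6. In the Lyve1 and Cbr2 subcluster, which all 4 libraries shared, Tlr3 was at 9.94 and 7.39 against 7.47 and 8.17, from 151, 61, 2 and 66 UMIs. Tlr4 was at 81.0 and 103 against 93.4 and 96.0, from 1230, 847, 25 and 775 UMIs. Both genes thus overlapped between the groups in this subcluster, of which siFXR1-LNA replicate 1 held only 45 cells.

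Tests within the subclusters with at least 10 cells in every library were added after these cell numbers had been seen. In the Lyve1 and Cbr2 subcluster edgeR called 0 of the 9 members, of which 9 passed the filter, and 0.066% of all genes (8 genes, with 686 at an unadjusted p under 0.05). Among cycling macrophages it called 0 of 8, against 0.0758% of all genes (7 genes, with 611 at an unadjusted p under 0.05). DESeq2 was not run within subclusters. The log2 fold change of Tlr3 in the Lyve1 and Cbr2 subcluster was -0.17 and that of Tlr4 was -0.02.

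In the subcluster led by Retnla and Prg4, which within the macrophages also stood out by the granulocyte genes Lcn2, S100a8 and S100a9 (283, 168, 1130 and 265 cells), Tlr7 and Tlr13 rose, 2 of 8 members tested against 3.92% of all genes. Tlr7 was at 7.92 and 7.83 CPM in the siCont libraries and at 42.8 and 41.8 in the others, with a log2 fold change of 2.21 (SE 0.33, edgeR adjusted p = 0.021). Tlr13 was at 22.6 and 32.9 against 102 and 98.4 (log2 fold change 1.66, edgeR adjusted p = 0.024). The rise of Tlr7 here ran against its value over the whole class.

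A subcluster led by Cacna1d and Nos2 (136, 49, 695 and 487 cells), with a median of 3175 UMIs per cell against 8547 in the Saa3 and Nos2 subcluster, had falls of Tlr4 and Tlr8, 2 of 8 members tested against 12.5% of all genes. Tlr4 was at 130 and 185 against 56.1 and 65.9, a log2 fold change of -1.26 (edgeR adjusted p = 0.014). Tlr3 was at 15.6 and 15.9 there against 2.12 and 4.83, from 6, 3, 5 and 11 UMIs, and its log2 fold change of -2.10 missed the threshold (edgeR adjusted p = 0.070). The groups did not overlap for either gene in this subcluster, unlike in the Lyve1 and Cbr2 subcluster. Tlr8 was at 83.4 and 106 against 28.0 and 43.1, a log2 fold change of -1.32 (edgeR adjusted p = 0.028). Among macrophage subclusters tested, Tlr4 fell in this one and not in those marked by Lyve1, Prg4 or cycling genes, and the difference between them was not tested.

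**Figure D4:**
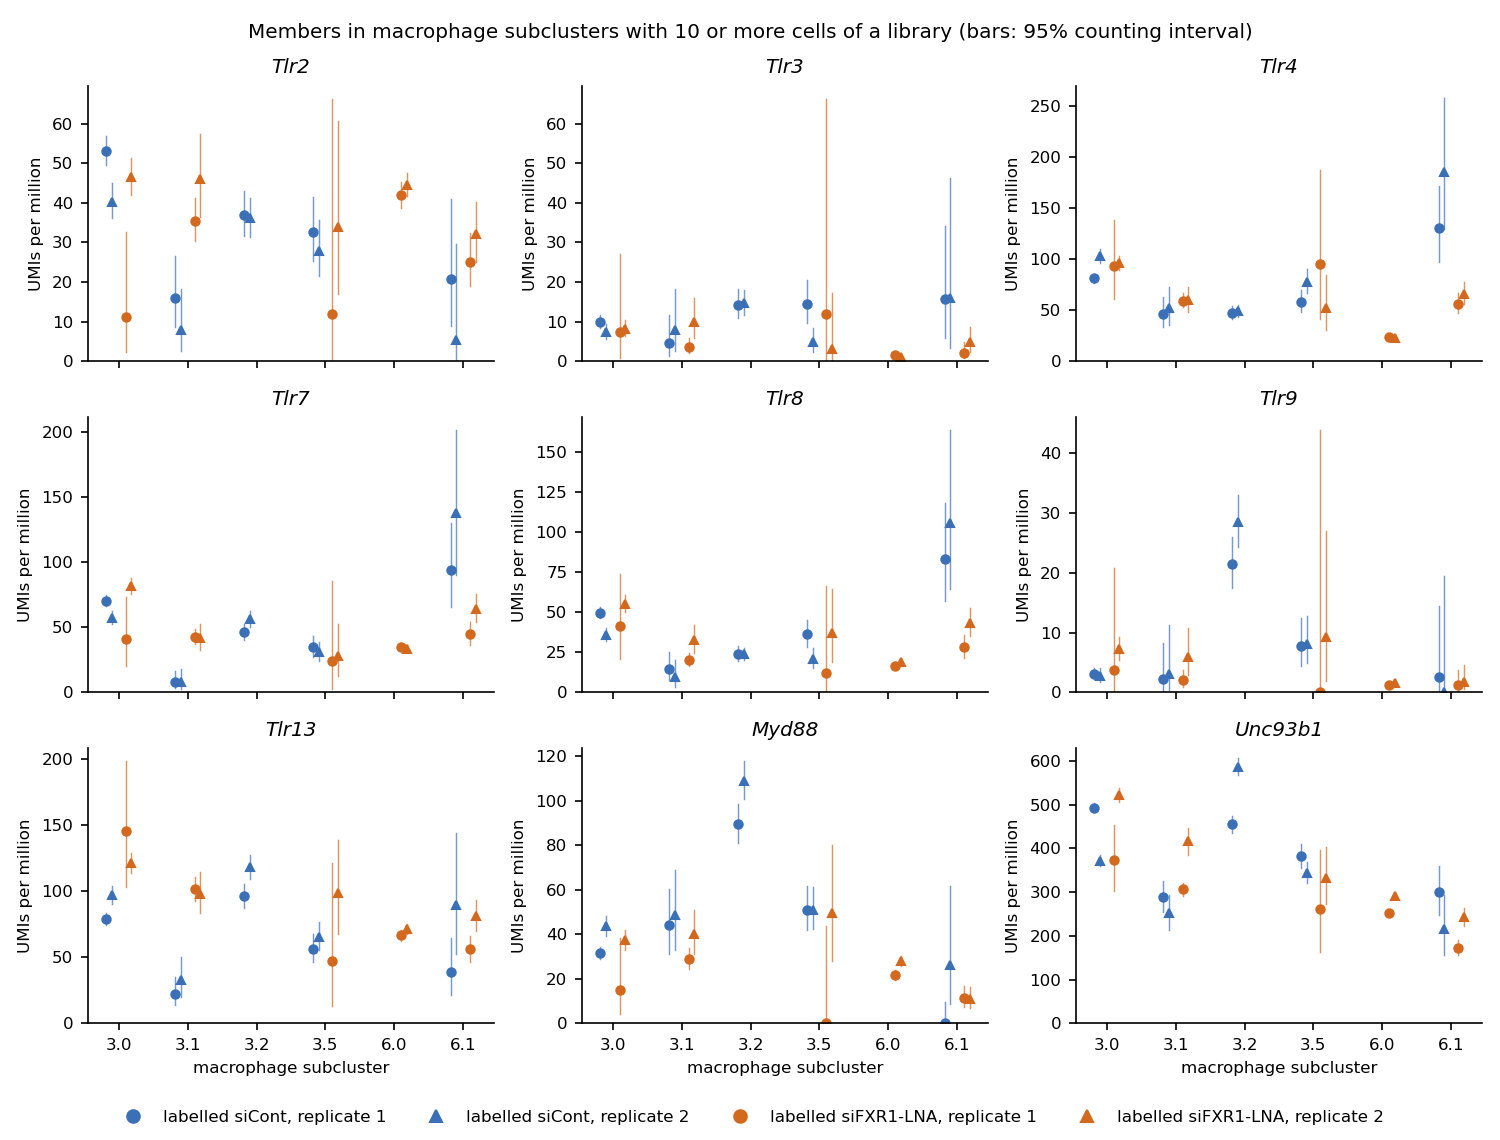
Levels of the 9 genes in the macrophage subclusters, as CPM of the subcluster's UMIs, with 1 point per library that has the subcluster. Tlr4 lies between 81.0 and 103 in the Lyve1 and Cbr2 subcluster in all 4 libraries and at 23.5 and 22.6 in the Saa3 and Nos2 subcluster, which the libraries labelled siFXR1-LNA hold nearly alone.

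In the other 10 classes tested, edgeR and DESeq2 each called 0 members, and 14 of the 57 tests of members there had an unadjusted edgeR p under 0.05, beside 15.6% of the tests of all genes in these classes. The share of all genes called by edgeR was 3.71% in granulocytes, 3.41% in type 2 DCs, 3.04% in migratory DCs, 1.42% in plasmacytoid DCs, 1.14% in type 1 DCs, 0.348% in T cells and 0.156% in B cells. It was 7.01% in the epithelial-mesothelial class, 1.85% in mast cells and 0.0431% in erythroid cells. Fewer members could be tested in small classes: 1 in plasmacytoid DCs (Unc93b1), 4 in migratory DCs, 7 in type 1 DCs and 0 in mast cells, while granulocytes and B cells had all 9.

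In granulocytes, which engulf microbes and carry preformed granules, 3 members were lower and 2 higher in both libraries labelled siFXR1-LNA, and so were 16.4% and 34.3% of all genes tested there. None of the 5 was called. Tlr4 was at 73.7 and 131 against 56.1 and 64.8 (log2 fold change -1.05, edgeR adjusted p = 0.244), and Unc93b1 at 141 and 121 against 56.2 and 97.4 (log2 fold change -0.998, edgeR adjusted p = 0.241). Tlr7 was at 6.35 and 6.26 against 14.3 and 21.7 (log2 fold change 1.25, edgeR adjusted p = 0.192). Without siCont replicate 1, which had 443 granulocytes, the edgeR log2 fold changes of Tlr4, Tlr8, Myd88 and Unc93b1 were -1.41, -1.51, -1.38 and -0.96. That fit leaves 1 siCont library.

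Tlr9 in granulocytes rested on few UMIs, 0 and 1 in the siCont libraries and 29 and 62 in the others. The ratio over the groups was 10.0, with a 95% counting interval from 1.76 to 401 and an edgeR adjusted p of 0.201. These UMIs came from a subcluster led by Ccl3, Cxcl2 and Ikbke, which had 0 and 18 cells in the siCont libraries and 5386 and 4472 in the others. The second main granulocyte subcluster, led by the granule gene Ngp and, within the class, also by mast cell genes such as Mcpt4, had 443 and 884 against 79 and 327 cells, and Tlr9 was at 0 and 0.574 in its siCont cells and at 0 in both others. Group and subcluster cannot be told apart for the granulocytes led by Ccl3.

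All 4 libraries held the Ngp subcluster, and it could be tested. EdgeR called 0 of the 6 members that passed the filter there, against 0.539% of all genes (41 genes, with 456 at an unadjusted p under 0.05). Tlr4 was at 73.7 and 132 against 35.3 and 84.5 (log2 fold change -1.01, edgeR adjusted p = 0.909), and the groups overlapped. Tlr7 was at 6.35 and 6.31 against 22.5 and 17.5, from 5, 11, 7 and 17 UMIs (log2 fold change 1.33, edgeR adjusted p = 0.841). Unc93b1 was at 141 and 119 against 89.8 and 141, a log2 fold change of -0.39 that was not past the threshold.

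In type 1 DCs, the class richest in Tlr3, the values of 144 and 162 against 50.3 and 118 did not overlap, and the log2 fold change was -0.80 (SE 0.34, edgeR adjusted p = 0.363), so a difference was not shown with 76 and 68 cells in the libraries labelled siFXR1-LNA. Without the filter on low counts the fold change of -0.86 passed, with an edgeR adjusted p of 0.023. Without the 85 cells holding macrophage markers edgeR called 0 of the 5 members it could test, against 1% of all genes (84 genes, with 1026 at an unadjusted p under 0.05), and DESeq2 was not run on these cells. The Tlr3 log2 fold change there was -0.79 (SE 0.31, edgeR adjusted p = 0.362). Tlr13 in type 1 DCs was at 35.4 and 39.1 against 56.9 and 55.1 (log2 fold change 0.61, edgeR adjusted p = 0.310). In type 2 DCs Tlr13 gave nearly the same values, 26.8 and 34.3 against 63.0 and 41.2 (log2 fold change 0.68, edgeR adjusted p = 0.234).

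In B cells Tlr7, which recognizes RNA taken up with the B-cell receptor, was at 29.3 and 38.7 against 21.6 and 21.4, with a log2 fold change of -0.85 (SE 0.26, edgeR adjusted p = 0.282). B cells and T cells too were held by different subclusters in the groups. Within the subcluster led by Saa3, Vegfa and Ndrg1 among B cells, with 51 and 56 cells against 810 and 542, Tlr7 fell from 123 and 137 to 22.2 and 19.0, a log2 fold change of -2.28 (edgeR adjusted p = 0.005). It was the 1 member called of 4 tested there, where 15.8% of all genes were called, and its UMIs numbered 12, 19, 39 and 25.

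**Figure D5:**
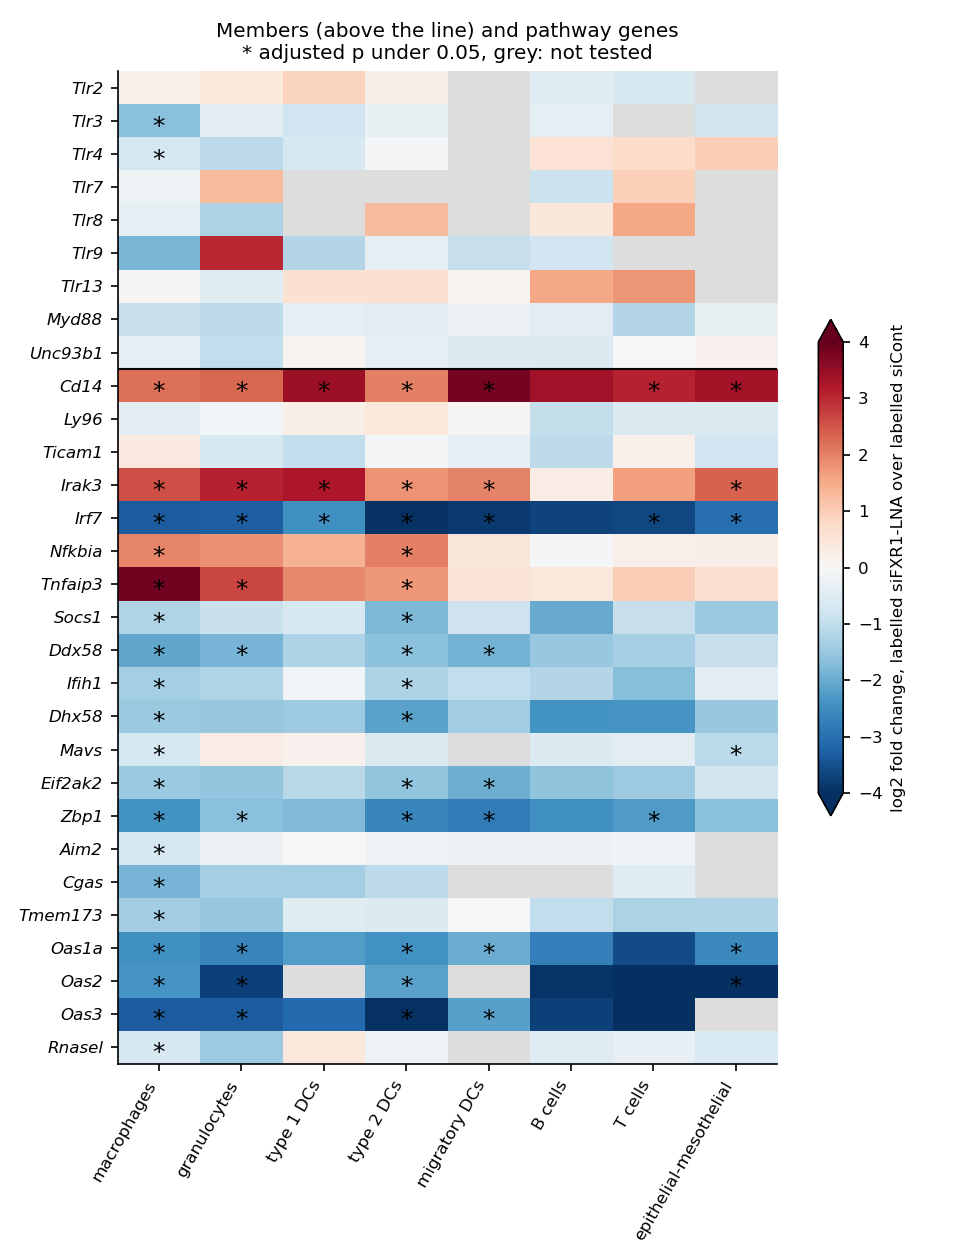
Log2 fold changes of the members, libraries labelled siFXR1-LNA over siCont, with their standard errors in each class where edgeR could test them. The called falls are Tlr3 (-1.66) and Tlr4 (-0.71) in macrophages, and the other classes hold none.

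Whether a member changed differently in another class than in macrophages was tested by an interaction of class and group in 1 fit over all classes. The contrast of Tlr9 between granulocytes and macrophages passed (edgeR adjusted p = 0.0024), as did 3.98% of the 14464 genes tested. With 1 Tlr9 UMI in the siCont granulocytes, below the floor of 1.18 CPM, that fit gives no size, and the gene passed the granulocyte filter only through the libraries labelled siFXR1-LNA. Tlr4 differed between the epithelial-mesothelial class and macrophages by 1.70 (SE 0.45, edgeR adjusted p = 0.023), with 4.18% of genes called. There Tlr4 was at 10.3 and 16.1 against 28.2 and 17.5, and its own log2 fold change was 0.99 (edgeR adjusted p = 0.158). No other member passed in any class.

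The genes around the receptors were read as 5 lists by role. Cytosolic nucleic acid sensors, which bind viral RNA or DNA outside endosomes and many of which are themselves induced by interferon, had no rise past the threshold in any class, and every one that was called fell. In macrophages all 13 tested sensors fell, with log2 fold changes from -3.31 to -0.65, against 9.55% of all genes that fell. Oas3, which makes the second messenger that activates RNase L, was at 53.8 and 72.9 CPM in the siCont libraries and at 5.10 and 6.08 in the others (log2 fold change -3.31, SE 0.22, edgeR adjusted p = 0.005). Oas1a of the same family was at 148 and 177 against 21.5 and 31.4 (log2 fold change -2.44, edgeR adjusted p = 0.007). The count was 6 without siFXR1-LNA replicate 1 and 9 to 11 without any other library.

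In type 2 DCs 8 of 13 sensors fell, where 1.82% of all genes did, and in granulocytes 5 of 13 beside 2.59%. The counts were 5 of 9 in migratory DCs beside 1.66%, 3 of 10 in the epithelial-mesothelial class beside 4.45% and 1 of 13 in T cells beside 0.133%. Not all sensors went down: 3 of the 13 in granulocytes overlapped between the groups, with log2 fold changes from -1.47 to 0.30. DESeq2 called 7 falls in T cells, 2 in migratory DCs and 1 in the epithelial-mesothelial class. In type 2 DCs Oas3 went from 53.6 and 76.4 to 3.78 and 4.58 (log2 fold change -3.96, edgeR adjusted p = 0.005) and Zbp1, a sensor of Z-form nucleic acids, from 191 and 226 to 34.0 and 36.6 (log2 fold change -2.61, edgeR adjusted p = 0.003). In granulocytes Oas2 went from 67.3 and 55.7 to 4.20 and 6.62 (log2 fold change -3.73, edgeR adjusted p = 0.002) and Oas3 from 67.3 and 80.8 to 7.17 and 10.6. Migratory DCs had falls of Zbp1 (69.0 and 146 to 14.7 and 17.6) and Oas3 (29.0 and 29.3 to 5.87 and 7.33), and T cells of Zbp1 (84.7 and 87.7 to 14.8 and 25.5). In the epithelial-mesothelial class Oas2 had 29 UMIs over the siCont libraries and 1 over the others, a ratio of 49.5 with a counting interval from 8.21 to 2023, and Oas1a went from 7.21 and 11.5 to 1.13 and 1.86.

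For type 1 DCs and B cells edgeR called 0 of 12 sensors each (0 of 11 in type 1 DCs without the 85 cells), with 6 and 8 at an unadjusted p under 0.05 and median log2 fold changes of -1.17 and -1.56. DESeq2 called 0 in type 1 DCs and 7 in B cells, all falls. Within the Lyve1 and Cbr2 macrophages edgeR called 0 of 13, with 4 at an unadjusted p under 0.05 and a median of -0.55. There 0.066% of all genes were called. Within the Prg4 subcluster edgeR called 3 of 13 (Zbp1, Oas3 and Oas1a), beside 3.92% of all genes. Among the cells led by Cacna1d and Nos2 it called 7 of 12, beside 12.5% of all genes.

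Adaptors and signalling genes downstream of the receptors moved less evenly. Irf7, the transcription factor that TLR7 and TLR9 use to switch on type I interferon and that interferon induces, fell in 7 classes. In macrophages it was at 303 and 430 CPM in the siCont libraries and at 23.8 and 40.1 in the others (log2 fold change -3.34, SE 0.34, edgeR adjusted p = 0.008). In type 2 DCs it went from 296 and 354 to 16.4 and 25.5, in granulocytes from 135 and 77.4 to 7.96 and 16.7, and in T cells from 110 and 113 to 6.85 and 13.1. B cells had 78.8 and 108 against 4.43 and 12.3, which missed the threshold (edgeR adjusted p = 0.067).

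Irf7 also marked the macrophage subcluster that the libraries labelled siFXR1-LNA lacked. Within the Lyve1 and Cbr2 subcluster it was at 130 and 69.0 against 44.8 and 60.2 (log2 fold change -0.89, edgeR adjusted p = 0.792), and within the Prg4 subcluster it fell from 124 and 122 to 23.8 and 43.6 (log2 fold change -2.15, edgeR adjusted p = 0.019). It fell as well in the Cacna1d subcluster (log2 fold change -1.53, edgeR adjusted p = 0.0497), whereas in cycling macrophages a log2 fold change of -2.06 missed the threshold (edgeR adjusted p = 0.057). In type 1 DCs without the 85 cells holding macrophage markers Irf7 fell with a log2 fold change of -2.49 (edgeR adjusted p = 0.016).

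Irak3, an inhibitory kinase-like protein of the MYD88 complex, rose in 6 classes. In macrophages it was at 33.3 and 36.7 against 183 and 180 (log2 fold change 2.56, SE 0.14, edgeR adjusted p = 0.004), and in granulocytes at 24.1 and 52.9 against 324 and 487 (log2 fold change 3.07, edgeR adjusted p = 0.014). Traf6, the ubiquitin ligase downstream of MYD88, rose in macrophages from 21.2 and 25.5 to 51.1 and 42.4 (log2 fold change 1.19, edgeR adjusted p = 0.016), and so did Tbk1 and Irak2, so that 4 of 22 rose and 1 fell, a share near that of all genes in macrophages (9.19% rose and 9.55% fell). The kinase Ikbke rose in granulocytes from 26.7 and 14.8 to 247 and 311 (log2 fold change 3.58, edgeR adjusted p = 0.004). Ikbke and Irak3 also marked the Ccl3 granulocyte subcluster, with 0 and 18 cells in the siCont libraries and 5386 and 4472 in the others. In the Ngp granulocyte subcluster edgeR called 0 of 19 adaptor and signalling genes, beside 0.539% of all genes. Of these 19, 3 had an unadjusted p under 0.05, and their median log2 fold change was -0.06. In the epithelial-mesothelial class Irf5, a factor that MYD88 activates, fell along with Irf7, from 108 and 72.3 to 24.8 and 51.8 (log2 fold change -1.29, edgeR adjusted p = 0.038). Ticam1, the adaptor of TLR3, was not called in any class, and in macrophages stood at 8.42 and 9.02 against 9.71 and 10.6.

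Among inhibitors of the pathway in macrophages, 2 of 7 rose and 1 fell, beside 9.19% and 9.55% of all genes tested there. Tnfaip3, the A20 ubiquitin-editing enzyme that limits NF-kB, was at 7.38 and 6.01 against 86.4 and 82.7 (log2 fold change 3.84, SE 0.14, edgeR adjusted p = 0.002). Nfkbia, the inhibitor that holds NF-kB in the cytoplasm, was at 154 and 262 against 647 and 783 (log2 fold change 1.96, edgeR adjusted p = 0.019), and Socs1, an inhibitor of cytokine signalling, at 12.7 and 18.7 against 5.53 and 6.45 (log2 fold change -1.20, edgeR adjusted p = 0.037). Type 2 DCs had the same 3 calls in the same directions, where 3.41% of all genes were called. Granulocytes had the rise of Tnfaip3, where 3.71% of all genes were called. In the Ngp granulocyte subcluster edgeR called 0 of 6 inhibitors, beside 0.539% of all genes. Among macrophages of the Lyve1 and Cbr2 subcluster it called 0 of 7, with a median log2 fold change of -0.02, beside 0.066% of all genes. In the Prg4 subcluster it called 0 of 6, beside 3.92%. In the Cacna1d subcluster 2 of 5 rose (Tnfaip3 and Nfkbia), beside 12.5% of all genes called.

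Of the receptors and co-receptors outside the members, Cd14, which hands lipopolysaccharide to TLR4 and also aids endosomal receptors, rose in 7 classes. In macrophages it was at 134 and 124 against 485 and 558 (log2 fold change 2.20, SE 0.15, edgeR adjusted p = 0.005). In the Lyve1 and Cbr2 subcluster it stood at 171 and 176 against 183 and 177. In T cells, which are not known to use it, Cd14 went from 4.63 and 4.13 to 38.5 and 44.7. The granulocyte marker list summed to 75.9 and 459 CPM in T cells of the siCont libraries and to 660 and 720 in the others, with all 7 markers detected in 3 libraries and Ly6g at 0 in siCont replicate 1, while granulocyte Cd14 was at 97.8 and 173 against 539 and 1076. The part of granulocyte RNA in that rise was not tested.

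Of 10 such genes in macrophages, 4 fell, beside 9.55% of all genes tested there. Ly86, the partner of CD180, went from 737 and 602 to 128 and 257 (log2 fold change -1.61, edgeR adjusted p = 0.037), and Cd180 and Tlr1 fell with it. Tlr12, a mouse receptor for a profilin of protozoa, had 70 UMIs over the siCont libraries and 1 over the others, a ratio of 96.3 with a counting interval from 16.7 to 3857. Ly96, the MD-2 partner that TLR4 needs to bind lipopolysaccharide, was not called in any class and was at 53.6 and 51.2 against 29.3 and 38.6 in macrophages (log2 fold change -0.44, edgeR adjusted p = 0.112). In the Lyve1 and Cbr2 subcluster edgeR called 0 of 8 genes of this list, with a median log2 fold change of 0.01, beside 0.066% of all genes. In the Prg4 subcluster it called 1 of 7 (Cd14), beside 3.92%. In the Cacna1d subcluster 1 of 7 rose and 3 fell, beside 12.5% of all genes called.

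Among chaperones and endolysosomal processing genes, the list nearest to Unc93b1, 1 of 13 rose and 2 fell in macrophages, again a share near that of all genes. In the Lyve1 and Cbr2 subcluster edgeR called 0 of 13, with a median log2 fold change of -0.05, beside 0.066% of all genes. In the Prg4 subcluster 3 of 13 rose (Lgmn, Ctsl and Ctsb), beside 3.92%. In the Cacna1d subcluster 1 of 13 rose and 1 fell, beside 12.5%. Over all macrophages Ctsl, an endosomal protease that can cleave the ectodomains of nucleic acid receptors, was at 355 and 367 against 1461 and 1356 (log2 fold change 2.15, SE 0.18, edgeR adjusted p = 0.006), and it rose in granulocytes, type 2 DCs, migratory DCs and the epithelial-mesothelial class as well. Pld4, an endolysosomal exonuclease that degrades single-stranded nucleic acids, fell from 316 and 323 to 69.4 and 120 (log2 fold change -1.57, edgeR adjusted p = 0.023). Slc15a4, a transporter needed for TLR7 and TLR9 signalling, fell from 30.7 and 33.5 to 17.1 and 19.2 (log2 fold change -0.63, edgeR adjusted p = 0.034), and stayed past the threshold in 1 of the 4 fits that left out 1 library, the one without siCont replicate 1.

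For each member the 3 genes with the most similar levels were read over 44 sums, 11 classes in 4 libraries, among 10943 genes, by Pearson's r of log2 values. These are descriptions, and the sums share libraries, depth and cell classes. Tlr3 was most like Fam149a (r = 0.82), its nearest coding gene at 13373 bases, then 2310040G24Rik (r = 0.81) and Sdad1 (r = 0.75). Tlr7 was most like Stambpl1 (r = 0.74), Cybb (r = 0.73), a subunit of the phagocyte oxidase, and Ubl7 (r = 0.69). For Tlr8 these were Lrp12 (r = 0.71), 6430548M08Rik (r = 0.71) and Metrnl (r = 0.70), and for Tlr9 they were A530040E14Rik (r = 0.87), Siglecg (r = 0.84), an inhibitory receptor of B cells, and Clec2g (r = 0.84). Tlr13 was most like Lrrc25 (r = 0.89), Apobr (r = 0.89) and Bst1 (r = 0.87).

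The surface receptor Tlr2 was most like Dpep2 (r = 0.82), Msrb1 (r = 0.81) and Pilra (r = 0.81), and Tlr4 like Sqor (r = 0.84), Tnfrsf1a (r = 0.74), a receptor for tumor necrosis factor, and G6pdx (r = 0.72). Myd88 was most like Trpv2 (r = 0.87), Gm46224 (r = 0.86) and Fam98c (r = 0.83), and Unc93b1 like Fgd2 (r = 0.90), Plcg2 (r = 0.90), a phospholipase downstream of immune receptors, and Gng10 (r = 0.87).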

How the data were processed

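The deposited UMI counts per gene and cell were made by the authors with Cell Ranger 7.0.0 on mm10, per the labels. The kit version and the Cell Ranger version differ between the labels and the study's methods. The limits on cells followed the methods (between 100 and 4800 genes, mitochondrial share up to 15%), and the remaining cells went into clustering with Seurat 5.3.0 (R 4.3.3; 2000 variable genes, 50 components, resolution 0.1) in 2 rounds. Clusters were named by a rule set after they had been seen, and the members and gene lists were chosen with earlier results of these data known. Clusters mixing marker lists were set aside (2206 cells). Counts of the deposited matrices were summed per class and library and tested across all genes with edgeR 4.0.16 (TMM, filterByExpr, glmQLFTest, Benjamini-Hochberg adjusted p under 0.05), on classes with at least 10 cells in every library. The test was tested on simulated data. Named genes beside the members were the 2 largest rises and falls past the threshold in each list and class, with Cd14, Ly96, Ticam1 and Irf7 always named, and members of small counts named after their values were seen. Alternatives used DESeq2 1.42.0, other filters and Scrublet (scanpy 1.11.5). Doublets were otherwise not removed. A floor is 3 counts, and intervals are 95% Poisson or binomial. The study's methods exclude 1 siFXR1-LNA replicate, for fewer reads and cells, that the labels do not mark. Of the 4 libraries, siFXR1-LNA replicate 2 had the fewest barcodes (17309) and UMIs (78179267).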

Additional observations from a re-analysis of the deposited data

Results flagged for a closer look

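The contrast of Tlr9 between granulocytes and macrophages passed the test of the difference between classes (edgeR adjusted p = 0.0024). Its fitted value of 4.97 on the log2 scale gives no size, since the siCont granulocytes held 0 and 1 Tlr9 UMIs, below the floor, and the gene passed the granulocyte filter only through the libraries labelled siFXR1-LNA (29 and 62 UMIs). The ratio of granulocyte levels was 10.0, with a counting interval from 1.76 to 401, and Tlr9 was not past the threshold in either class. Without siCont replicate 2, the library with the 1 UMI, the edgeR adjusted p was 0.078. Different granulocyte and macrophage subclusters filled the classes in the 2 groups, and their part in the contrast was not tested.

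The change of Tlr4 also differed between the epithelial-mesothelial class and macrophages. Its log2 fold change was 0.99 in the former and -0.71 in the latter, and the tested difference was 1.70 (edgeR adjusted p = 0.023). Without siFXR1-LNA replicate 1 the difference was 1.02 with an edgeR adjusted p of 0.872, and without siFXR1-LNA replicate 2 it was 2.24 with an edgeR adjusted p of 0.067.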

How the results depend on the processing

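Members called in macrophages numbered 4 in place of 2 with DESeq2, without TMM, without the filter on low counts and with the replicate block, where Tlr9 and Myd88 joined Tlr3 and Tlr4, and 0 to 4 when 1 library was left out (0 without siFXR1-LNA replicate 1, 1 without siCont replicate 2 or siFXR1-LNA replicate 2, 4 without siCont replicate 1). The replicate numbers of the labels were not shown to pair samples (correlations of same-number deviations -0.08 to 0.37, 2 pairs), and the block changed no other class's count of members. With the block the cytosolic sensors that fell numbered 8 in granulocytes and 7 in migratory DCs, in place of 5 in each. DESeq2 gave 2 in migratory DCs, 7 in B cells in place of 0 and 7 in T cells in place of 1, and without the filter on low counts 0 fell in granulocytes. Leaving out 1 library gave 6 to 11 in macrophages and 2 to 8 in granulocytes, both lowest without siFXR1-LNA replicate 1, 7 to 8 in type 2 DCs and 5 to 7 in migratory DCs. In granulocytes members were called only in the fit without siCont replicate 1. That fit leaves 1 siCont library, and its share of all genes called is not given. In type 1 DCs 1 member, Tlr3, was called without the filter. In the epithelial-mesothelial class 1 was called at a first-round resolution of 0.3 (Tlr13) and 0 to 1 when 1 library was left out (Tlr4). Differences between classes past the threshold numbered 2, 3 without the filter and 1 to 4 when 1 library was left out, and a block by replicate number was not fitted there because the library is the block. Over the counts of members and of differences between classes, 94 of 100 under other settings and 38 of 48 without 1 library stayed within 1.5 times. The counts of sensors are not among these. Most counts that stayed were 0 in both fits, and in mast cells 0 of 9 members could be tested. In macrophages the count of members moved in every fit without 1 library. A count can also stay while its genes change, as in macrophages with cells holding other classes' markers left out. Within the Prg4 macrophage subcluster, chosen after seeing the data, the log2 fold changes of Tlr4 and Tlr7 changed sign, to 0.069 (edgeR adjusted p = 0.897) and 2.21 (edgeR adjusted p = 0.021). With cells holding other classes' markers left out, 71, 114, 120 and 67 macrophages remained, Tlr3 could not be fitted, Tlr4 was at -0.35 (edgeR adjusted p = 0.619), and Myd88 and Unc93b1 were called. The 85 type 1 DCs with macrophage markers lay just under the limit of the rule that sets mixed clusters aside, and without them edgeR called 0 members in that class. Leaving out hemoglobin genes changed no count of members. The cause was not tested for any of these. Without TMM the macrophage log2 fold changes of Tlr3 and Tlr4 were -1.85 and -0.89, both past the threshold. Depth limits Tlr9 and Tlr3, every member but Unc93b1 in plasmacytoid DCs and all members in mast cells, and NK cells had too few cells to test.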
